A study of Mus musculus with 8 samples.

Results

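Gata6, Gata4, Sox17, Sox7, Foxa2, Hnf4a, Pdgfra, Dab2 and Cubn are 9 mouse genes known as regulators or markers of primitive endoderm. They are listed by symbol, with no threshold on measured values, and each symbol matched 1 of the 55573 genes in the count table. All 9 passed the filter on low counts, which left 20608 genes for testing. Foxa2 reached the level that the filter asks for, 0.172 CPM (counts divided by the library total, on a fixed scale), in the 4 libraries treated with SGC0946 but in none of the 4 untreated libraries, and Gata6 reached it in none of the 2 libraries of wild-type cells.

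Primitive endoderm is the epithelium that forms next to the epiblast in the inner cell mass of the mouse blastocyst, and it gives rise to the visceral and parietal endoderm of the yolk sacs. GATA6 is the earliest of its transcription factors and opposes NANOG, the factor of the epiblast, while FGF4 from epiblast cells acts through FGF receptors and ERK to favour the endoderm fate. PDGFRA, SOX17, GATA4 and SOX7 appear after GATA6 in the embryo, and cultures of mouse embryonic stem cells (ESCs) are known to hold rare cells that express these genes.

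Polyadenylated RNA from bulk cultures of mouse ESCs was sequenced in 4 groups of 2 libraries. 2C::GFP+/SA cells carried the 2C::GFP+ genotype, named for a GFP reporter that marks 2-cell-like cells, and were given 2 µM SGC0946 and 2 µM AS8351 in KnockOut medium with 10 ng/ml IL6/sIL-6R and no stated LIF. 2C::GFP+/SGC cells had the same genotype and were given 2 µM SGC0946 in KnockOut medium with 10 ng/ml LIF. 2C::GFP+ cells had that genotype and no compound, and mESC are untreated wild-type ESCs. KnockOut medium holds KnockOut serum replacement, non-essential amino acids, glutamine and 2-mercaptoethanol. For the untreated groups the labels give either this medium with 10 ng/ml LIF or N2B27 medium with LIF, PD03 (an inhibitor of MEK) and CHIR9901 (an inhibitor of GSK3), so medium and group cannot be told apart for mESC. SGC0946 blocks DOT1L, which methylates histone H3, and AS8351 is reported to block the histone demethylase KDM5B. 2C::GFP+/SA differs from 2C::GFP+/SGC in AS8351 and in the cytokine, which cannot be told apart.

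The untreated 2C::GFP+ columns were named only for the serum replacement and were assigned by elimination, so every comparison with 2C::GFP+ rests on that assignment. Sorting for the reporter is not mentioned in the labels, nor is it stated that replicates were separate cultures, so p-values measure the spread between these libraries, which may be technical. Replicate 1 held 96895327 to 145810034 counts and replicate 2 held 12299931 to 19544870, a ratio of 7.46 to 9.62 within groups. A count of 0 allows a level of up to 0.0206 to 0.244 CPM across libraries (3 counts of each total, counting error only). Of counts from 1 to 20, 69.6% to 73.3% were even numbers, and the sources used here do not say whether 1 count stands for 1 fragment. The ESC markers Nanog, Pou5f1 and Sox2 were high in every library, at 945 to 1141, 667 to 1057 and 334 to 905 TPM (counts per transcript length, scaled to a common total). In bulk RNA, fewer cells that express a gene and less RNA of it per cell cannot be told apart.

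In 2C::GFP+/SA cells 8 of the 9 genes stood above every other library of the study, and Hnf4a, the factor of the visceral endoderm and liver, stood below. Over all tested genes, the 2C::GFP+/SA libraries were separated from 2C::GFP+ for 64.3%, from 2C::GFP+/SGC for 58.8% and from mESC for 72.7%, in either direction. The share separated from all groups at once was not counted. Against 2C::GFP+, 6 genes were called higher and 1 lower at an adjusted p under 0.05, where 14.9% of all tested genes were higher and 13.8% lower. Without 2C::GFP+ replicate 1 the counts were 3 higher and 1 lower among the 9, and 2890 in place of 5910 genes in all. Sox7, Pdgfra, Foxa2 and Dab2 differed most, with log2 fold changes between 3.75 and 4.14, although Dab2 did not pass. The median log2 fold change of the 9 genes was 3.43, beside 0.01 over all tested genes. SGC0946 alone gave no such call: 0 of the 9 genes and 0% of all genes passed in 2C::GFP+/SGC against 2C::GFP+.

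**Figure D1:**
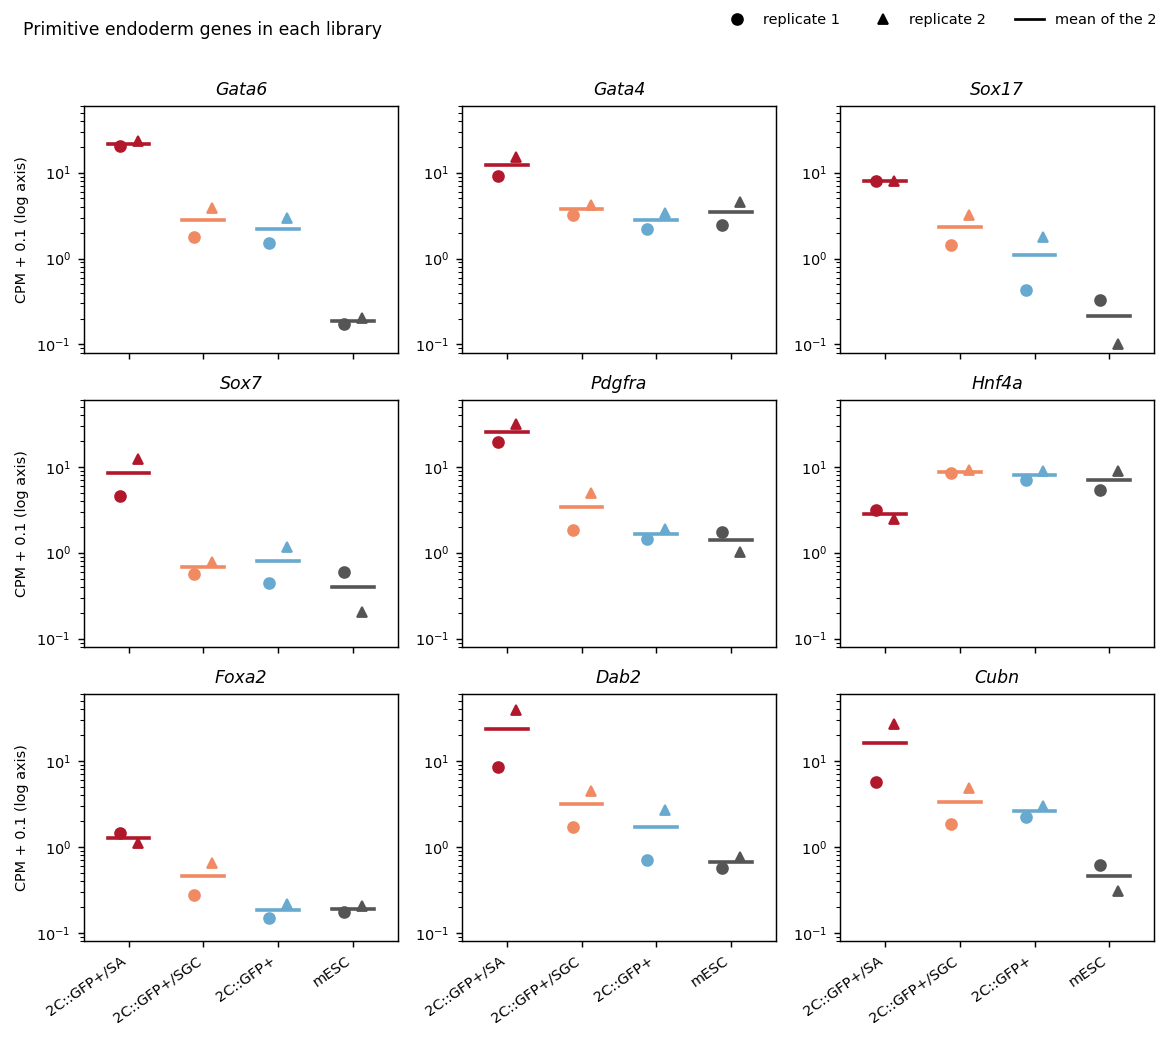
Level of each of the 9 genes in each library, as CPM after TMM scaling plus 0.1 on a log axis. Circles are replicate 1, triangles replicate 2 and bars the mean of both. In 2C::GFP+/SA both libraries lie above all 6 others for 8 genes and below all 6 for Hnf4a. The share of all tested genes set apart in this way was not counted.

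Promoter sequence from RefSeq (GRCm38.p6, 250 bases before to 50 after a transcription start) was matched by symbol for Pdgfra, Foxa2, Dab2, Cubn and Hnf4a, 5 of the 9 genes, in 9 windows. They are shown so that the gene that fell can be read beside genes that stood higher. Windows were searched on both strands for words of the GATA factors (the words AGATAA or AGATAG, and TGATAA or TGATAG), of SOX factors (AACAAT or AACAAAG) and of FOXA factors (TGTTTAC or TGTTTGC). These words do not overlap one another, and capitals mark a match on either strand. One window per gene is printed 5′ to 3′ in the direction of transcription, the one with a match where there is one. The windows are chr5:75152001-75152300 (plus strand) for Pdgfra, chr2:148045415-148045714 (minus strand) for Foxa2, chr15:6299539-6299838 (plus strand) for Dab2, chr2:13491827-13492126 (minus strand) for Cubn and chr2:163506607-163506906 (plus strand) for Hnf4a.
Pdgfra: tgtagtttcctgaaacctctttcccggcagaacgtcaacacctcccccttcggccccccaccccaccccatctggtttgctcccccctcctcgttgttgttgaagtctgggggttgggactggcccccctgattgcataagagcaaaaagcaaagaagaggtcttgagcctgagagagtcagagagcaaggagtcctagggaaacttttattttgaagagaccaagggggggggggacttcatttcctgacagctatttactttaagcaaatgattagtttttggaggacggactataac
Foxa2: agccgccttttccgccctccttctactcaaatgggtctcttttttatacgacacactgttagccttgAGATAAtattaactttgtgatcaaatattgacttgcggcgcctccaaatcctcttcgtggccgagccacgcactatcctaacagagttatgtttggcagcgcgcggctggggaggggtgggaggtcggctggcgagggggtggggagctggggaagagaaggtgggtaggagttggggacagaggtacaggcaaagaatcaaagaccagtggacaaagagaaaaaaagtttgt
Dab2: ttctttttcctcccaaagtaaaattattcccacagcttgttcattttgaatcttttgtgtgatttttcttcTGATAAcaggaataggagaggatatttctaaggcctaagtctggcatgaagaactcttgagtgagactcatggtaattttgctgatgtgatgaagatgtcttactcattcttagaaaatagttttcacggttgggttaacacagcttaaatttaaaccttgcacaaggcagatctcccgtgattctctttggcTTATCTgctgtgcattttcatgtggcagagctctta
Cubn: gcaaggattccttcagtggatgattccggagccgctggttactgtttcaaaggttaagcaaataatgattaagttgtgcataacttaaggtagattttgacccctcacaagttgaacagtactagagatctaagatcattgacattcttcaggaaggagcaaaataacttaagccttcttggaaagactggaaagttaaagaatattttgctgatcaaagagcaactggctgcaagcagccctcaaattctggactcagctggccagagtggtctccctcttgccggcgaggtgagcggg
Hnf4a: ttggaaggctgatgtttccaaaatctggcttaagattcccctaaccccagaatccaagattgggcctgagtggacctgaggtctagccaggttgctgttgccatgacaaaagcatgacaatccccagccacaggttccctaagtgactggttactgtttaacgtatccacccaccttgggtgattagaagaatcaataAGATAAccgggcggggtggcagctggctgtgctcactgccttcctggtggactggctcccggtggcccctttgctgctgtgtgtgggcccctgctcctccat
The Dab2 window held TGATAA at position -179 from the start and AGATAA on the opposite strand at position 15. AGATAA stood at position -183 in the Foxa2 window and at position -52 in the Hnf4a window, so the gene that fell and genes that stood higher share that word. No GATA word was found in the windows of Pdgfra and Cubn, in the other 2 windows of Foxa2 or in the other window of Dab2 and of Hnf4a. No SOX or FOXA word was found in any of the 9 windows. Of 32851 promoters of the same length, 29.8% held a GATA word, 15.7% a SOX word and 8.48% a FOXA word. A match in letters is a description of the window and not a binding site.

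Gata6 (ENSMUSG00000005836, GRCm38 chromosome 18, 11052064 to 11085635, plus strand) encodes the factor that starts the primitive endoderm program. Its level was 20.3 and 23.1 CPM for 2C::GFP+/SA, 1.68 and 3.74 for 2C::GFP+/SGC, 1.40 and 2.85 for 2C::GFP+, and 0.0729 and 0.103 for mESC. The groups formed 3 steps: 2C::GFP+/SA stood above all others, both other 2C::GFP+ groups overlapped, and mESC stood below. Gata6 rose 10.8-fold in 2C::GFP+/SA against 2C::GFP+ (3.43 ± 0.43 on the log2 scale, SE; adjusted p = 0.000103) and 8.53-fold against 2C::GFP+/SGC (3.09 ± 0.42; adjusted p = 0.000442). It was also the only 1 of the 9 genes called in untreated 2C::GFP+ against mESC, where 24.3% of all genes were called: the difference was 4.65 ± 0.59 (adjusted p = 9.07e-05), from 168 and 48 counts in 2C::GFP+ and 10 and 2 for mESC. With limma on log2(TPM + 1) this last call ended (0.98, adjusted p = 0.0917, or 0.222 with no filter), and the cause was not tested. In 2C::GFP+/SA against mESC the log2 fold change was 8.08 ± 0.59, a 271-fold difference (adjusted p = 3.47e-07).

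Gata4 (ENSMUSG00000021944, chromosome 14, 63198922 to 63271692, minus strand) encodes a second GATA factor of the lineage, which acts after GATA6. It measured 9.14 and 15.1 CPM for 2C::GFP+/SA, 3.11 and 4.15 for 2C::GFP+/SGC, 2.09 and 3.27 for 2C::GFP+, and 2.34 and 4.41 for mESC. The ranges of 2C::GFP+/SGC, 2C::GFP+ and mESC overlapped, and both 2C::GFP+/SA libraries stood above them. The rise in 2C::GFP+/SA was 4.60-fold against 2C::GFP+ (2.20 ± 0.41 on the log2 scale; adjusted p = 0.00128), 3.36-fold against 2C::GFP+/SGC (1.75 ± 0.40; adjusted p = 0.00938) and 3.66-fold against mESC (1.87 ± 0.40; adjusted p = 0.00168). The second of these did not pass without 2C::GFP+/SGC replicate 1 (1.54; adjusted p = 0.119) or with limma on log2(TPM + 0.1) (adjusted p = 0.0720). With limma on log2(TPM + 1) and no filter on low values none of the 3 passed (adjusted p = 0.0508, 0.142 and 0.0512).

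Sox17 (ENSMUSG00000025902, chromosome 1, 4490931 to 4497354, minus strand) and Sox7 (ENSMUSG00000063060, chromosome 14, 63943673 to 63950732, plus strand) encode related SOX factors that mark primitive endoderm and also endothelium. Sox17 stood at 7.78 CPM in both 2C::GFP+/SA libraries, at 1.34 and 3.13 for 2C::GFP+/SGC, at 0.334 and 1.66 for 2C::GFP+, and at 0.233 and 0 for mESC. For Sox7 the libraries gave 4.46 and 12.2 CPM for 2C::GFP+/SA, 0.465 and 0.680 for 2C::GFP+/SGC, 0.342 and 1.07 for 2C::GFP+, and 0.496 and 0.103 for mESC. The group means of Sox17 descended in this order, but its 2C::GFP+/SGC and 2C::GFP+ libraries overlapped. Neither 2C::GFP+/SGC against 2C::GFP+ nor 2C::GFP+ against mESC passed for Sox17 (adjusted p = 0.651 and 0.129), and its mESC level rests on 32 and 0 counts. Sox7 lay between 0.103 and 1.07 CPM in all 6 libraries outside 2C::GFP+/SA, whose groups overlapped.

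Against 2C::GFP+, Sox17 rose in 2C::GFP+/SA by a log2 fold change of 3.20 ± 0.87 (adjusted p = 0.0245) and Sox7 by 3.75 ± 0.75 (adjusted p = 0.00342). The Sox17 call ended when either 2C::GFP+/SA library or 2C::GFP+ replicate 1 was left out, with adjusted p-values of 0.0550, 0.0832 and 0.0923. Sox7 missed the threshold without 2C::GFP+ replicate 1 (adjusted p = 0.0501). Against 2C::GFP+/SGC only Sox7 passed (3.92 ± 0.75; adjusted p = 0.00520), and it did not do so without 2C::GFP+/SGC replicate 1 (adjusted p = 0.0950) or with limma on log2(TPM + 1) and no filter (adjusted p = 0.0571). The value of Sox17 in that comparison was 1.88 ± 0.80 (adjusted p = 0.153). Whether the 2 genes differ from each other was not tested.

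Foxa2 (ENSMUSG00000037025, chromosome 2, 148042877 to 148046969, minus strand), a forkhead factor of visceral and definitive endoderm, had the lowest mean of the 9 genes in 2C::GFP+/SA per length of transcript, 1.58 TPM. Its counts were 124 and 13 for 2C::GFP+/SA, 24 and 8 for 2C::GFP+/SGC, 6 and 2 for 2C::GFP+, and 10 and 2 for mESC. These correspond to 1.36 and 1.00 CPM for 2C::GFP+/SA, 0.172 and 0.544 for 2C::GFP+/SGC, 0.0501 and 0.119 for 2C::GFP+, and 0.0729 and 0.103 for mESC. The untreated groups overlapped, and 2C::GFP+/SGC lay between them and 2C::GFP+/SA without overlap. The difference of 2C::GFP+/SA from 2C::GFP+ was 4.14 ± 0.94 on the log2 scale (adjusted p = 0.00511). It did not pass without 2C::GFP+/SA replicate 1 or 2C::GFP+ replicate 1, at adjusted p-values of 0.0518 and 0.0995. In 2C::GFP+/SGC against 2C::GFP+ it was the only 1 of the 9 genes whose groups did not overlap, as for 43.8% of all genes, and its value of 2.16 ± 0.98 missed the threshold (adjusted p = 0.496).

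Hnf4a (ENSMUSG00000017950, chromosome 2, 163506808 to 163572910, plus strand), a nuclear receptor of the visceral endoderm, liver and gut, ran the other way. It was measured at 3.00 and 2.39 CPM for 2C::GFP+/SA, 8.26 and 9.04 for 2C::GFP+/SGC, 6.91 and 8.85 for 2C::GFP+, and 5.27 and 8.73 for mESC. The 6 libraries outside 2C::GFP+/SA overlapped among their groups. In 2C::GFP+/SA the level fell by 1.51 ± 0.32 on the log2 scale against 2C::GFP+, a 2.85-fold lower value (adjusted p = 0.00351). Against 2C::GFP+/SGC the fold change was -1.65 ± 0.32 (adjusted p = 0.00404) and against mESC -1.33 ± 0.32 (adjusted p = 0.00418), the last of which did not pass without mESC replicate 2 (adjusted p = 0.0553). With limma on log2(TPM + 1) and no filter none of the 3 passed (adjusted p = 0.0524, 0.0505 and 0.0564). Vil1 and Cdx1, other genes of gut epithelium, did not pass in 2C::GFP+/SA against 2C::GFP+: their log2 fold changes were 0.08 ± 0.43 and -0.69 ± 0.34. Against mESC both passed, in opposite directions: Vil1 was higher (1.59 ± 0.46, adjusted p = 0.0113) and Cdx1 lower (-3.76 ± 0.35, adjusted p = 1.88e-06).

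Pdgfra (ENSMUSG00000029231, chromosome 5, 75152292 to 75198215, plus strand) encodes the PDGF receptor alpha, an early surface marker of primitive endoderm that is also made by mesenchymal cells. The libraries held 19.4 and 31.4 CPM for 2C::GFP+/SA, 1.75 and 4.89 for 2C::GFP+/SGC, 1.34 and 1.78 for 2C::GFP+, and 1.65 and 0.924 for mESC. The 2C::GFP+/SA libraries stood far above the rest, the range of 2C::GFP+ overlapped those of 2C::GFP+/SGC and mESC, and 2C::GFP+/SGC lay just above mESC. Pdgfra rose 16.7-fold in 2C::GFP+/SA against 2C::GFP+ (4.06 ± 0.52 on the log2 scale; adjusted p = 0.000305) and 8.19-fold against 2C::GFP+/SGC (3.03 ± 0.49; adjusted p = 0.00265). Both calls held in all 8 fits that left out 1 library. Of the PDGF ligands and the other receptor, 5 genes with 4 tested, none rose in 2C::GFP+/SA against 2C::GFP+ and 1 fell. Over all tested genes 14.9% were higher and 13.8% lower in that comparison. The gene that fell was Pdgfc, a ligand of this receptor. It had 8.91 and 7.63 CPM for 2C::GFP+/SA and 21.7 and 18.1 for 2C::GFP+ (-1.26 ± 0.22 on the log2 scale, adjusted p = 0.000857).

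Dab2 (ENSMUSG00000022150, chromosome 15, 6299788 to 6440712, plus strand) encodes a clathrin adaptor, and Cubn (ENSMUSG00000026726, chromosome 2, 13276338 to 13491813, minus strand) encodes cubilin, an endocytic receptor; together they serve uptake in visceral endoderm. Dab2 stood at 8.39 and 39.0 CPM for 2C::GFP+/SA, 1.60 and 4.42 for 2C::GFP+/SGC, 0.601 and 2.61 for 2C::GFP+, and 0.474 and 0.667 for mESC. Cubn stood at 5.53 and 26.4 CPM for 2C::GFP+/SA, 1.73 and 4.76 for 2C::GFP+/SGC, 2.13 and 2.85 for 2C::GFP+, and 0.517 and 0.205 for mESC. For both genes the 2C::GFP+/SA libraries stood above all others but were far apart, replicate 2 being 4.64 times replicate 1 for Dab2 and 4.77 times for Cubn.

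The log2 fold changes in 2C::GFP+/SA against 2C::GFP+ were 4.08 ± 1.19 for Dab2 and 2.68 ± 0.86 for Cubn, with adjusted p-values of 0.0586 and 0.0619. Both passed with DESeq2 (adjusted p = 0.00230 for Dab2 and 0.0207 for Cubn) and with a term for replicate number (6.38e-07 and 0.0265). Fits without 1 library gave 2.58 to 5.25 for Dab2 and 1.20 to 3.46 for Cubn, the latter highest without 2C::GFP+/SA replicate 1. Compared with 2C::GFP+/SGC, Dab2 gave 3.06 ± 1.11 and Cubn 2.36 ± 0.86, and neither passed in the main fit (adjusted p = 0.141 and 0.121). Against mESC both rose, Dab2 by 5.44 ± 1.27 (adjusted p = 0.0202) and Cubn by 5.21 ± 0.99 (adjusted p = 0.00568). Neither call held without mESC replicate 2 (0.143 and 0.0937). That of Dab2 did not hold without mESC replicate 1 (0.106), without 2C::GFP+/SGC replicate 2 (0.0603) or without the filter on low counts (0.0638), and that of Cubn did not hold with limma on log2(TPM + 1) and no filter (0.0685). Of 10 endocytic partners of cubilin and DAB2, all tested, 2 rose in 2C::GFP+/SA against 2C::GFP+ and none fell, with a median of 0.16. Over all tested genes 14.9% were higher and 13.8% lower in that comparison. Lrpap1, a chaperone of receptors of this class, had 185 and 181 CPM for 2C::GFP+/SA and 87.7 and 82.8 for 2C::GFP+ (1.10 ± 0.13; adjusted p = 4.53e-05). Myo6, a motor of endocytic vesicles, gave 0.70 ± 0.21 (adjusted p = 0.0203), a call that ended without either 2C::GFP+ library (adjusted p = 0.128 and 0.0532) and in all 3 limma fits (adjusted p between 0.186 and 0.324).

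**Figure D2:**
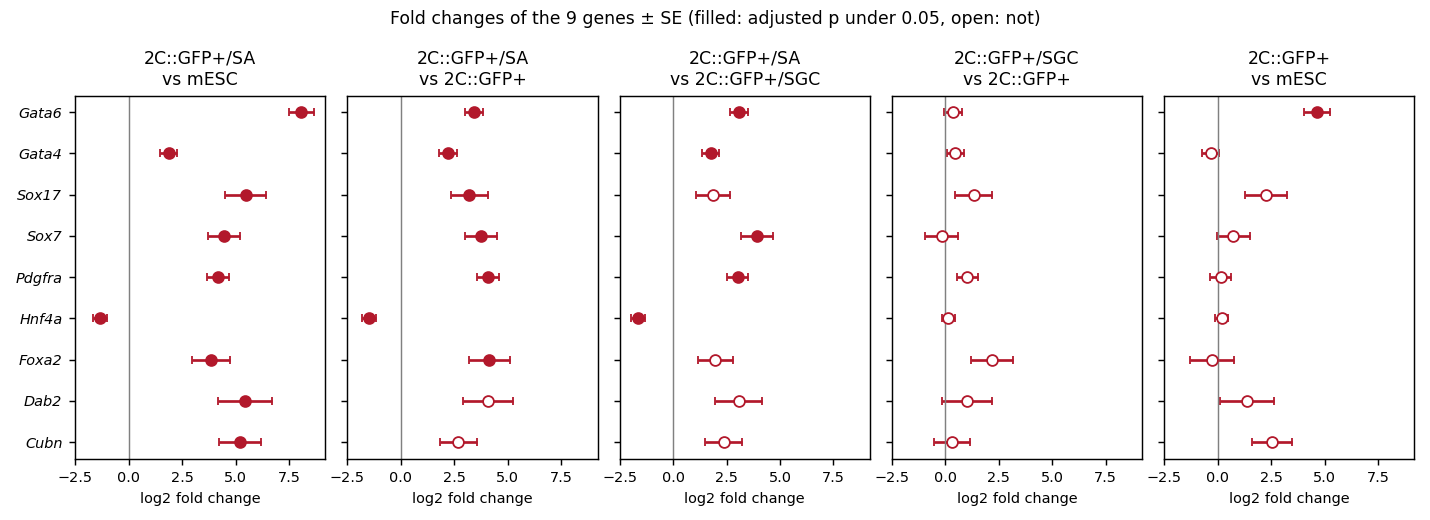
Log2 fold changes of the 9 genes in the 5 comparisons, with bars of 1 SE; filled points passed at an adjusted p under 0.05 and open points did not. In the 3 comparisons of 2C::GFP+/SA the values lie between 1.75 and 8.08 for 8 genes and between -1.65 and -1.33 for Hnf4a. These 3 share the 2C::GFP+/SA libraries, so they are not independent of each other.

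Across the comparisons the counts of called genes were as follows. Against 2C::GFP+/SGC, 4 of the 9 genes were higher in 2C::GFP+/SA and 1 lower, where 7.92% of all genes were higher and 8.18% lower (2 and 1 of the 9 without 2C::GFP+/SGC replicate 1). The median log2 fold change there was 2.36, beside -0.02 over all genes. Against mESC, 8 were higher and 1 lower, where 25% of all genes were higher and 20.1% lower. Complete separation of the 2C::GFP+/SA libraries held for 9 of 9 genes against each other group, and for 64.3% of all genes against 2C::GFP+, 58.8% against 2C::GFP+/SGC and 72.7% against mESC. In 2C::GFP+/SGC against 2C::GFP+, 8 of the 9 values were positive with a median of 0.45, none passed, and 1 had an unadjusted p under 0.05. Over all genes 2037 (9.88%) had such a p in that comparison and 0 passed adjustment with edgeR, while DESeq2 called 274 genes, 0 of them among the 9, and edgeR called 431 without 2C::GFP+/SA replicate 2. In 2C::GFP+ against mESC the median was 0.73, and 3 genes (Gata6, Sox17 and Cubn) were completely separated, as were 62.9% of all genes. There Sox17 differed by 2.27 ± 0.97 (adjusted p = 0.129), a value of 0.92 without 2C::GFP+ replicate 2 and 8.64 without mESC replicate 1, and it passed without 2C::GFP+ replicate 1 (adjusted p = 0.0271) or without the filter on low counts (0.00113). Cubn differed by 2.53 ± 0.94 (adjusted p = 0.105), and it passed with DESeq2 (0.0295), without the filter, with only the 4 libraries compared (0.00421) and without either 2C::GFP+/SA library (0.00476 and 0.000406). These comparisons share groups of libraries, and each stands with its own values.

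Per length of transcript, the 9 genes together summed to 37.4 and 85.9 TPM for 2C::GFP+/SA, 13.4 and 21.9 for 2C::GFP+/SGC, 8.66 and 16.0 for 2C::GFP+, and 6.98 and 11.2 for mESC. The makeup of the sum differed as well as its size. Hnf4a was the most abundant of the 9 in all 6 libraries outside 2C::GFP+/SA and took 45.4% and 31.2% of the sum for 2C::GFP+/SGC, 52.3% and 40.2% for 2C::GFP+, and 49.7% and 56.0% for mESC. In 2C::GFP+/SA it took 4.75% and 2.07%, and the most abundant was Gata6 in replicate 1 (8.91 TPM) and Dab2 in replicate 2 (19.1 TPM). All 9 genes reached 1 TPM in both 2C::GFP+/SA libraries, while 2 and 7 of the 9 did so for 2C::GFP+/SGC, 2 and 6 for 2C::GFP+, and 2 in each mESC library. The TPM of Nanog was nevertheless 122 and 75.8 times that of Gata6 for 2C::GFP+/SA, beside 1169 and 467 for 2C::GFP+/SGC, 1589 and 615 for 2C::GFP+, and 27166 and 20875 for mESC. Nanog itself lay between 945 and 1141 TPM in all 8 libraries, so the ratio followed Gata6.

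**Figure D3:**
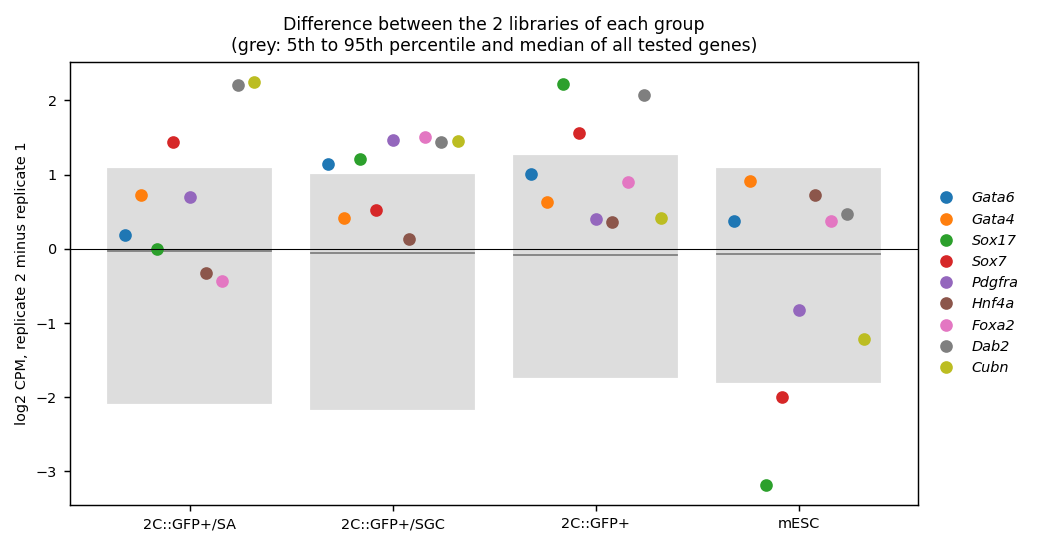
Difference between the libraries of each group (log2 CPM, replicate 2 minus replicate 1) for the 9 genes, with the 5th to 95th percentile and the median of all tested genes in grey. Above the grey range lie 3 genes for 2C::GFP+/SA, 6 for 2C::GFP+/SGC and 3 for 2C::GFP+, and below it lie Sox17 and Sox7 in mESC.

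The 9 genes also differed between replicates of the same group. In log2 CPM with a prior count of 2, 7 of the 9 were higher in replicate 2 than in replicate 1 of 2C::GFP+/SA, 9 of 9 for 2C::GFP+/SGC, 9 of 9 for 2C::GFP+ and 5 of 9 for mESC. Over all tested genes the shares were 47.3% for 2C::GFP+/SA, 43.4% for 2C::GFP+/SGC, 40.5% for 2C::GFP+ and 38.3% for mESC. In 2C::GFP+/SA the difference was 2.25 for Cubn, 2.21 for Dab2 and 1.44 for Sox7, beyond the 95th percentile of all genes at 1.07, whereas Gata6 (0.19) and Hnf4a (-0.33) lay near the median of -0.03. In 2C::GFP+/SGC 6 of the 9 lay beyond the 95th percentile of 1.00: Foxa2 (1.51), Pdgfra (1.47), Cubn (1.45), Dab2 (1.45), Sox17 (1.21) and Gata6 (1.14). In 2C::GFP+ it was 3 of the 9 beyond 1.25, namely Sox17 (2.22), Dab2 (2.07) and Sox7 (1.57). In mESC none lay beyond 1.08, and Sox17 (-3.18) and Sox7 (-1.99) lay below the 5th percentile of -1.79. In the 2C::GFP+/SA pair the genes of the 2-cell-like state went the other way: 1 of 16 was higher in replicate 2, with a median of -1.37. It was 8 of 16 for 2C::GFP+/SGC, 10 of 16 for 2C::GFP+ and 11 of 16 for mESC, with medians of -0.13, 0.05 and 1.02. The shallower library is replicate 2 in every group, and the part of depth in these differences was not tested. Over the 8 libraries the log2 levels of the 8 genes other than Hnf4a correlated pairwise with Pearson r between 0.58 and 0.94 (28 pairs, median 0.88), and those with Hnf4a between -0.85 and -0.55 (8 pairs). These are descriptions over libraries that share groups and sequencing depth.

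Other regulators of extraembryonic endoderm were read in the same libraries. Of 10 such genes, 9 tested, 5 were higher in 2C::GFP+/SA than in 2C::GFP+ and none lower, with a median log2 fold change of 3.03. For this list and those that follow, the shares over all tested genes were 14.9% higher and 13.8% lower. Snai1, a repressor of epithelial genes, stood at 199 and 102 CPM for 2C::GFP+/SA and 8.02 and 7.90 for 2C::GFP+ (4.24 ± 0.30; adjusted p = 1.58e-05). Dkk1, a secreted Wnt antagonist, reached 6.62 and 11.6 CPM for 2C::GFP+/SA and 0.0167 and 0.178 for 2C::GFP+ (7.64 ± 0.83; adjusted p = 3.25e-05). Its 2C::GFP+ values are at most about the level of 3 counts (0.0237 and 0.182 CPM), so the size of this fold rests on few counts. Dkk1 was lower in 2C::GFP+ than in mESC (-3.55 ± 0.86, adjusted p = 0.00837), and its rise in 2C::GFP+/SA against mESC was 4.09 ± 0.61 (adjusted p = 0.000115). Bmp2, a ligand made by visceral endoderm, measured 2.33 and 2.31 CPM for 2C::GFP+/SA and 0.150 and 0 for 2C::GFP+ (4.36 ± 0.85; adjusted p = 0.00193). In each of these the 2C::GFP+/SA libraries lay far above both 2C::GFP+ libraries.

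Markers of the later endoderm lineages were mixed. Of 17 visceral endoderm markers, 12 tested, 3 rose in 2C::GFP+/SA against 2C::GFP+ and 2 fell, with a median of 0.87. Apob, the main protein of lipoproteins, rose by 2.03 ± 0.47 (adjusted p = 0.00539), to 4.31 and 6.01 CPM for 2C::GFP+/SA, against 1.39 and 1.07 for 2C::GFP+. Spink1, a protease inhibitor, rose by 1.66 ± 0.48 (adjusted p = 0.0189), and Apom, an apolipoprotein, fell by 1.36 ± 0.40 (adjusted p = 0.0209). The fetal albumin-like gene Afp had 50 counts in the 2C::GFP+/SA group and 2 in the 2C::GFP+ group, a ratio of 32.8 (95% counting interval 8.61 to 278). Ttr, Apoa4 and Apoc2, abundant products of mature visceral endoderm, had 0 counts in both 2C::GFP+/SA libraries. This was not particular to 2C::GFP+/SA: Apoa4 and Apoc2 had 0 counts in every group, and Ttr in all but 2C::GFP+. The call of Apob ended with limma on log2(TPM + 0.1) (adjusted p = 0.0563) and on log2(TPM + 1) with no filter (0.0938). Apom stood higher in 2C::GFP+/SA than in mESC (1.71; adjusted p = 0.00496). The call of Spink1 ended with limma on log2(TPM + 0.1) (adjusted p = 0.290) and without 2C::GFP+/SA replicate 1 or either 2C::GFP+ library (adjusted p between 0.0881 and 0.153). Those of Apom (0.0506 to 0.153) and Afp (0.0769 and 0.126) ended without 2C::GFP+/SA replicate 2 or 2C::GFP+ replicate 1, and that of Apom also without 2C::GFP+ replicate 2.

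Of 15 genes of parietal endoderm and basement membrane, all tested, 8 rose and 2 fell in 2C::GFP+/SA against 2C::GFP+, with a median of 1.10. Lamb1, a laminin chain, stood at 177 and 243 CPM for 2C::GFP+/SA and 54.5 and 66.4 for 2C::GFP+ (1.80 ± 0.19; adjusted p = 3.50e-05). Srgn, a proteoglycan core protein, rose by 2.55 ± 0.60 (adjusted p = 0.00650) and Plat, a plasminogen activator of parietal endoderm, by 2.92 ± 0.72 (adjusted p = 0.00814, or 0.0978 without 2C::GFP+ replicate 1). Nid1, a basement membrane linker, moved down, at 89.7 and 76.7 CPM for 2C::GFP+/SA and 218 and 195 for 2C::GFP+ (-1.31 ± 0.15; adjusted p = 4.23e-05).

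Genes of the signal that favours primitive endoderm in the embryo did not move in 1 direction. Of 17 FGF pathway genes, all tested, 4 rose and 5 fell in 2C::GFP+/SA against 2C::GFP+, with a median of -0.12. The ligand gene Fgf4 measured 147 and 140 CPM for 2C::GFP+/SA and 292 and 238 for 2C::GFP+ (-0.89 ± 0.15; adjusted p = 0.000615), and the receptor gene Fgfr1 fell by 0.79 ± 0.13 (adjusted p = 0.000723). Mapk3, which encodes ERK1, fell by 1.10 ± 0.14 (adjusted p = 7.53e-05), while Grb2, the adaptor that links receptors to RAS, rose by 1.27 ± 0.16 (adjusted p = 0.000107). Of 13 epiblast factors, 2 rose and 8 fell, with a median of -0.51. Tfcp2l1 and Esrrb, factors of naive ESCs, fell by 1.19 ± 0.15 and 0.96 ± 0.13 (adjusted p = 7.46e-05 and 0.000112). Bmp4, a ligand made by the epiblast, fell by 1.47 ± 0.20 (adjusted p = 0.000126), and Sall4, which ESCs and primitive endoderm both use, rose by 0.92 ± 0.14 (adjusted p = 0.000335).

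**Figure D4:**
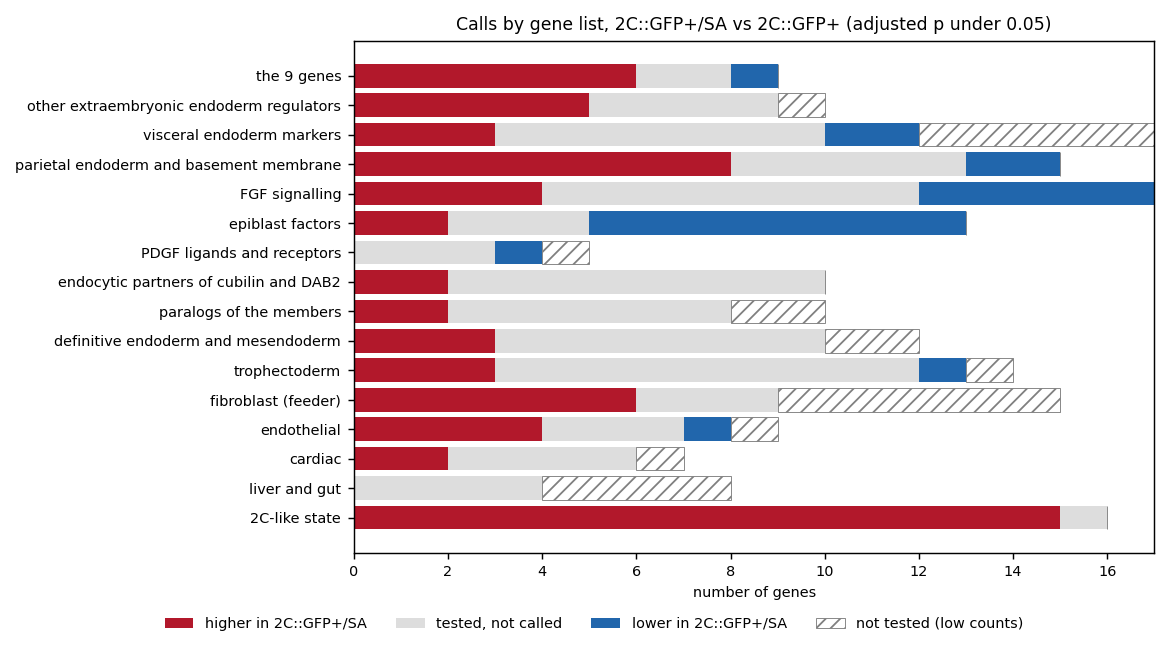
Number of genes called higher, called lower, tested but not called, or not tested for low counts in 2C::GFP+/SA against 2C::GFP+, for the 9 genes and each of 15 other lists. Other extraembryonic endoderm regulators hold 5 higher and 0 lower of 9 tested, while FGF signalling holds 4 higher and 5 lower of 17. Over all tested genes 14.9% were called higher and 13.8% lower. Some genes belong to several lists.

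Several of the 9 genes are also made by other cell types, whose markers were read in the same comparison. Of 15 fibroblast genes, 9 tested, 6 were higher in 2C::GFP+/SA than in 2C::GFP+ and none lower (median 1.50), and their summed level was 54.8 to 72.8 TPM for 2C::GFP+/SA, 37.8 to 42.6 for 2C::GFP+/SGC, 25.3 to 28.5 for 2C::GFP+ and 16.5 to 20.0 for mESC. Fbn1, Thy1 and Col5a1 rose by 2.14 ± 0.29, 1.50 ± 0.24 and 1.06 ± 0.18 (adjusted p = 0.000169, 0.000545 and 0.000604). Of the 15, 7 reached 1 TPM in some library and 8 lay below it in every library. Col1a1 stood at 2.83 and 3.59 TPM for 2C::GFP+/SA, against 0.680 and 0.825 for 2C::GFP+, Col1a2 at 0.974 and 0.982, against 0.0702 and 0.235, and Twist1 at 10.1 and 19.2, against 5.21 and 4.73. Pdgfrb stood lower, at 1.24 and 2.53 TPM for 2C::GFP+/SA, against 2.58 and 4.22 for 2C::GFP+. Loxl1 overlapped, at 1.28 and 2.02, against 1.81 and 1.96. Of the 9 tested genes 7 had a positive log2 fold change. Against 2C::GFP+/SGC, 4 were called higher and 1 lower. Col3a1, Postn, Lum and Prrx1 were at or under 0.0319 TPM in every library, and S100a4 had no count in any. Of 9 endothelial genes, 8 tested, 4 rose and 1 fell (median 1.37), and their sum was 53.5 to 93.2 TPM for 2C::GFP+/SA and 68.0 to 70.0 for 2C::GFP+. Tek and Kdr, receptors of endothelium, rose by 2.16 ± 0.29 and 2.67 ± 0.60 (adjusted p = 0.000136 and 0.00485). Kdr was lower in 2C::GFP+ than in mESC (-2.17 ± 0.59, adjusted p = 0.0159). In 2C::GFP+/SA against mESC Kdr did not pass (0.49 ± 0.55, adjusted p = 0.496), while Tek did (1.86 ± 0.28, adjusted p = 0.000140). Pecam1 fell by 0.80 ± 0.16 (adjusted p = 0.00244), and Cdh5 stood at 0.328 and 1.45 TPM for 2C::GFP+/SA, against 0.0251 and 0 for 2C::GFP+. Of 7 cardiac genes, 6 tested, 2 rose (Actn2 by 2.64 ± 0.49 and Nkx2-5 by 2.17 ± 0.64, Nkx2-5 not without 2C::GFP+/SA replicate 1 or either 2C::GFP+ library) and none fell, while 4 of the 7 reached 1 TPM in some library. Myh6, a heart myosin, stood at 3.32 and 3.88 TPM for 2C::GFP+/SA, against 1.86 and 1.92 for 2C::GFP+, Myl7, an atrial myosin light chain, at 2.87 and 0.940, against 10.0 and 4.94, and Tnnt2, a troponin of heart muscle, at or under 0.215 in every library. Of 8 liver and gut genes, 4 tested, none passed. The part of other cell types in the levels of the 9 genes was not tested.

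Paralogs close in sequence could share reads with the 9 genes. Of 10 paralogs, 8 tested, 2 rose in 2C::GFP+/SA against 2C::GFP+ and none fell (median 0.38), beside 14.9% and 13.8% of all tested genes. Sox18, of the same SOX subgroup as Sox7 and Sox17, stood at 5.50 and 5.55 CPM for 2C::GFP+/SA and 1.44 and 2.26 for 2C::GFP+ (1.62 ± 0.43; adjusted p = 0.0117, or 0.124 without 2C::GFP+ replicate 1). Foxa1, the paralog of Foxa2, stood at 33.9 and 41.8 CPM for 2C::GFP+/SA, 6.51 and 19.0 for 2C::GFP+/SGC, 2.23 and 7.72 for 2C::GFP+, and 0.0729 and 0.205 for mESC. Its rise of 3.03 ± 0.81 against 2C::GFP+ (adjusted p = 0.0442) did not pass in 6 of the 8 fits without 1 library, namely all but those without 2C::GFP+/SGC replicate 1 and 2C::GFP+ replicate 2 (adjusted p between 0.0507 and 0.198). The sources used here do not give the strand setting of the counting or how reads with several matches were treated. Gata6 overlaps the opposite-strand transcript 1010001N08Rik, which had 48 and 4 counts in 2C::GFP+/SA, 0 and 6 for 2C::GFP+/SGC, 4 and 2 for 2C::GFP+ and 0 for mESC, and Cubn overlaps Gm13270, with at most 38 counts in a library. Transcripts that overlap exons of Sox17, Pdgfra and Dab2 had at most 2 counts in any library, and no annotated gene overlaps exons of Gata4, Sox7, Hnf4a or Foxa2.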

How the data were processed

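Bulk polyadenylated RNA of 8 libraries was sequenced by a standard Illumina protocol, per the labels. The authors deposited read counts per gene without normalization and TPM values. Among the tools listed in the submitters' processing notes are STAR 2.7.4a, featureCounts 2.0.0, Trim Galore 0.6.5 and FastQC 0.11.9, with Cell Ranger and the builds mm10 and GRCm38. GENCODE M21 (GRCm38) gave symbols and positions.

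Counts passing filterByExpr (20608 genes, minimum of 10 counts scaled to 0.172 CPM in 2 libraries) were scaled by TMM and fitted in edgeR 4.0.16 (robust quasi-likelihood, 1 term per group, 8 libraries, 4 residual degrees of freedom). Two-sided p-values were adjusted by Benjamini-Hochberg over all tested genes. SE is the absolute log2 fold change over the root of F. The fit was tested on simulated data.

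The 9 genes and all lists were chosen with earlier results of these data known. Up to 3 called genes in the commoner direction and 1 in the other are named per list, by smallest adjusted p in 2C::GFP+/SA against 2C::GFP+, or the 2 highest where none is called, with the 5 genes most like Gata6. Col1a1, Col1a2, Twist1, Pdgfrb, Loxl1, Myh6, Myl7, Col3a1, Postn, Lum, Prrx1, S100a4, Cdh5, Tnnt2, Ttr, Apoa4 and Apoc2 were named after their values were seen. Alternatives were DESeq2 1.42.0, RLE factors, other filters, limma 3.58.1 on log2(TPM + 1) or log2(TPM + 0.1), only the libraries compared, a replicate block, and leaving out each library.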

Additional observations from a re-analysis of the deposited data

How the results depend on the processing

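Over 764 combinations of the 9 genes, the 5 comparisons and an alternative, 691 kept direction and side of the threshold, 33 gained a call, 26 lost one and 14 changed sign; over 830 of the other named genes 772 kept both. Calls among the 9 genes in 2C::GFP+ vs mESC (1) numbered 2 with DESeq2, 3 without a filter on low counts, 0 with limma on log2(TPM + 1) with or without that filter, 2 with only the 4 libraries compared and 2 with the replicate block, and 1 to 2 without 1 library. Those in 2C::GFP+/SA vs 2C::GFP+ (7) were 4 to 9 without 1 library (4 without 2C::GFP+ replicate 1), those in 2C::GFP+/SA vs 2C::GFP+/SGC (5) 3 to 7, or 2 with limma without a filter, and those in 2C::GFP+/SA vs mESC (9) 6 to 9. Over all genes, 2C::GFP+ vs mESC (5016) gave 2924 with limma on log2(TPM + 1), 1620 without its filter and 2872 to 5869 without 1 library. 2C::GFP+/SGC vs 2C::GFP+ (0) gave 274 with DESeq2, 499 without a filter, 1 with limma on log2(TPM + 0.1), 326 with only the 4 libraries compared, 284 with the block and 0 to 431 without 1 library. 2C::GFP+/SA vs 2C::GFP+ (5910) gave 3075 with limma without a filter and 2890 to 5861 without 1 library, 2C::GFP+/SA vs 2C::GFP+/SGC (3319) 1354, 2210 with only the 4 libraries compared and 1207 to 3324, and 2C::GFP+/SA vs mESC (9288) 5964 and 6630 to 9648. The genes Afp, Srgn, Plat, Wnt3, Krt18, Kdr, Pecam1 and Actn2 also lost their calls in 2C::GFP+/SA vs 2C::GFP+ with limma without a filter (adjusted p between 0.0528 and 0.291), Foxa1 with RLE factors or without a filter on low counts (0.0521 and 0.127), and Wnt3 and Krt18 with only the 4 libraries compared (0.0526 and 0.0553) or any limma fit. The cause of these changes was not tested. Signs turned only when 1 library was left out and only in values that did not pass. In 2C::GFP+ vs mESC the log2 fold changes then ranged over -0.78 to 0.15 for Gata4, -0.11 to 2.52 for Sox7, -0.14 to 0.68 for Pdgfra, -0.17 to 0.57 for Hnf4a and -0.69 to 0.57 for Foxa2. In 2C::GFP+/SGC vs 2C::GFP+ they ranged over -0.24 to 0.93 for Gata6, -1.01 to 0.66 for Sox7, -0.045 to 0.33 for Hnf4a and -0.49 to 0.99 for Cubn, and for Vil1 in 2C::GFP+/SA vs 2C::GFP+ over -0.24 to 0.39. Over all tested genes, same-numbered libraries deviated together only weakly (r between 0.041 and 0.14 over pairs of groups), and the main fit has no replicate term. That r does not settle a shift shared by the 9 genes. Of these, 7, 9, 9 and 5 were higher in replicate 2 of 2C::GFP+/SA, 2C::GFP+/SGC, 2C::GFP+ and mESC, the shallower library in each. With the replicate block 9, 7 and 9 of the 9 genes passed in 2C::GFP+/SA against 2C::GFP+, 2C::GFP+/SGC and mESC, and 0 in 2C::GFP+/SGC vs 2C::GFP+. It added Dab2 (adjusted p = 6.38e-07 and 2.42e-05) and Cubn (0.0265 and 0.0458) in the first and second of these, and Cubn in 2C::GFP+ vs mESC (0.0417). With 2 libraries a group, levels near the limit of 0.0206 to 0.244 CPM rest on few counts.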

Other observations

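Lists of other lineages were read in 2C::GFP+/SA against 2C::GFP+, where 14.9% of all tested genes were higher and 13.8% lower. Of 12 genes of definitive endoderm and mesendoderm, 10 tested, 3 rose and none fell (median log2 fold change 1.17). Nodal, a TGF-beta ligand of the early embryo, stood at 256 and 356 CPM for 2C::GFP+/SA and 113 and 110 for 2C::GFP+ (1.46 ± 0.15; adjusted p = 2.34e-05). Cxcr4, a chemokine receptor of definitive endoderm, rose by 2.60 ± 0.46 (adjusted p = 0.00106), while Wnt3 passed at 4.30 ± 1.28 (adjusted p = 0.0225) and not without 2C::GFP+/SA replicate 2 or either 2C::GFP+ library (0.0720 to 0.290). In 2C::GFP+/SA against mESC Nodal passed (2.17 ± 0.16, adjusted p = 1.94e-07), while Cxcr4 (0.25 ± 0.42, adjusted p = 0.654) and Wnt3 (1.45 ± 1.09, adjusted p = 0.302) did not. Cxcr4 was lower in 2C::GFP+ than in mESC (-2.34 ± 0.46, adjusted p = 0.00209). Of 14 trophectoderm genes, 13 tested, 3 rose and 1 fell (median 0.30). Krt8, a keratin of simple epithelia, was higher in 2C::GFP+/SA than in 2C::GFP+ by 1.42 ± 0.25 (adjusted p = 0.00109, or 0.0500 with limma on log2(TPM + 1) and no filter) and lower than in mESC (-1.30 ± 0.25; adjusted p = 0.000760). The value of 2C::GFP+ against mESC was -2.72 ± 0.26 (adjusted p = 6.14e-06). In the same list Tead4, a factor of the trophectoderm, stood at 7.36 and 5.85 CPM for 2C::GFP+/SA and 31.4 and 26.2 for 2C::GFP+ (-2.10 ± 0.20; adjusted p = 1.39e-05). Plac1 (4.89 ± 1.22; adjusted p = 0.00863) lost its call without 2C::GFP+/SA replicate 1 or 2C::GFP+ replicate 1, and Krt18 (1.12 ± 0.39; adjusted p = 0.0465) without 2C::GFP+/SA replicate 2, 2C::GFP+/SGC replicate 1 or either 2C::GFP+ library (0.0601 to 0.297). Of 16 genes of the 2-cell-like state, 15 rose and none fell (median 3.44), among them Duxf3, Arg2 and Tmem92 with log2 fold changes of 3.94 ± 0.24, 4.11 ± 0.26 and 4.52 ± 0.27 (adjusted p = 8.38e-07, 2.26e-06 and 9.79e-06).

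Likeness to Gata6 in log2 level over the 8 libraries was ranked among 12496 genes with a mean of at least 1 CPM. The primitive endoderm genes, predicted gene models and pseudogenes were left out of this ranking. Klhl41, Zfp949, Cdc42ep3, Gtf2a1l and Gpcpd1 were most like Gata6, with Pearson r between 0.993 and 0.998. Klhl41 stood at 4.73 and 4.78 CPM for 2C::GFP+/SA, 0.838 and 1.09 for 2C::GFP+/SGC, 0.617 and 1.13 for 2C::GFP+, and 0.0874 and 0.103 for mESC. Gpcpd1 stood at 73.2 and 77.1 CPM for 2C::GFP+/SA, 31.8 and 37.0 for 2C::GFP+/SGC, 28.3 and 35.3 for 2C::GFP+, and 14.6 and 12.8 for mESC. Of the other 8 primitive endoderm genes, which were not part of that ranking, the closest to Gata6 was Cubn (r = 0.94).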
